A study of Rattus norvegicus with 24 samples.

Results

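Sham operation in this rat study exposed the left sciatic nerve and left it uninjured. The comparison described here is between 3 single-cell libraries of dorsal root ganglion (DRG) neurons labelled as sham at day 0 (S1, S2 and S7) and 4 labelled as sham at 1 day (S3 and S6), 3 days (S4) or 7 days (S5). All share the sham label and differ by it in the time. The labels do not say whether the day 0 rats had been operated on, and the study's abstract names naïve rats beside the injured ones. The libraries were chosen by their labels, and they are 7 of the 24 libraries of the series and 503 of its 1433 cells that passed quality control. All came from male Sprague-Dawley rats; the neurons were picked by mouth pipette, and each cell was reverse transcribed with its own barcode and with unique molecular identifiers (UMIs) that count molecules. The labels name these 7 as new libraries and give neither the animal behind each, nor its date of preparation, nor whether its cells carried the nerve dyes used elsewhere in the study. The libraries are therefore the replicates here, and p-values measure the spread between libraries, which may be in part technical.

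The DRG holds the cell bodies of the sensory neurons of the limb. Peptidergic nociceptors (PEP) release substance P and calcitonin gene-related peptide and respond to nerve growth factor; nonpeptidergic nociceptors (NP) use the GDNF receptor Ret and the ATP-gated channel P2rx3. Somatostatin neurons (SST) carry itch signals, and large neurofilament-rich neurons (NF) serve touch and proprioception. Since each class expresses its own receptors, channels and peptides, the classes that are picked set much of what the sum of a library holds.

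Of 528 cells in the 7 libraries, 503 had 500 or more genes and 1000 or more UMIs, with under 5% of UMIs in mitochondrial genes. The cells kept numbered 44 in S1, 46 in S2 and 48 in S7 at day 0, and 96 in S3, 88 in S6, 86 in S4 and 95 in S5 later. The UMIs summed per library ranged from 14004136 to 26861948 at day 0 and from 32123851 to 40732975 at days 1 to 7. The median cell of a library held 351125 ± 129927 UMIs at day 0 (SD, n = 3) and 323440 ± 41772 later (SD, n = 4; exact two-sided permutation test over libraries, p = 0.743). The medians of genes per cell were 9762 ± 1151 and 10228 ± 271 (SD, n = 3 and 4; exact two-sided permutation p = 0.4). With 3 libraries against 4 there are 35 splits, so this exact permutation test cannot go below p = 0.0571. All 17 pan-neuronal genes searched passed the filter on low counts; Tubb3, a tubulin of neurons, lay between 1097 and 1400 CPM in every library, where CPM are the UMIs of a gene scaled to a common library total.

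S1 and S2 stood apart from the other 5 libraries, S7 included. The first principal component of the log2 CPM of library sums took 54.7% of the variance and placed S1 at -109 and S2 at -92.5, whereas S7 at 37.1 lay within the range of the later libraries, 31.2 to 67.1. The second, with 17% of the variance, had S4 at 71.9 at one end and S7 at -55 at the other, with S3, S5 and S6 between -25.3 and 2.41. The log2 CPM of S1 and S2 correlated with a Pearson r of 0.945 across genes, above that of either with any other library (0.863 to 0.923) and below that of most pairs among the other 5 (0.934 to 0.981). The chi-square per degree of freedom between their counts, which grows with depth, was 16.8, the lowest of any pair (next 25.8, S3 with S5). It was above sampling noise, but sums over different cells can exceed that noise even within 1 plate or rat. This value therefore cannot show that S1 and S2 are independent. They were kept as 2 libraries because they are labelled as 2 samples. The cell numbers in their files share none and together fill the 96 numbers once, and their files list genes in an order of their own. The other pairs share 24 to 96 cell numbers, and no cell had the values of another cell. Whether S1 and S2 fill 1 plate together or come from 1 rat was not tested. Each result below is therefore given with S7 named separately.

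**Figure D1:**
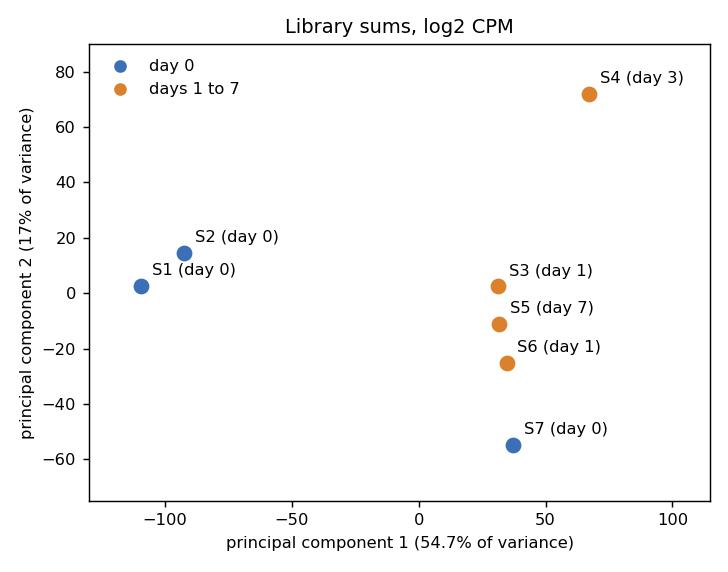
Principal components 1 and 2 of the log2 CPM of the 7 library sums (axes, with their share of variance), 1 point per library, day 0 in blue and days 1 to 7 in orange. S1 and S2 lie at the far left, and S7, also day 0, lies at 37.1 on the first component with the 4 later libraries.

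No gene separated day 0 from days 1 to 7 beyond the spread between libraries. Of 16175 genes tested with the quasi-likelihood test of edgeR and Benjamini-Hochberg adjustment, 0 (0%) had an adjusted p under 0.05. At an unadjusted p under 0.05 there were 1503 (9.29%), of which 808 (5%) were higher and 695 (4.3%) lower at days 1 to 7. Levels did not overlap between the groups for 934 genes higher later (5.77%) and 793 lower later (4.9%). The median log2 fold change over all genes was 0.01. DESeq2 called 195 genes on the same sums (1.21%), 109 higher and 86 lower later.

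The count turned on S7. Without it, S1 and S2 against the 4 later libraries gave 1992 calls of 16742 genes (11.9%), 1311 higher (7.83%) and 681 lower later (4.07%). For 1846 of those 1992 genes (92.7%), the level in S7 was nearer to the mean of days 1 to 7 than to that of S1 and S2, although S7 is a day 0 library; over all 16742 genes it was so for 67.7%. When S1 and S2 were summed as 1 library 0 genes were called, with 842 at an unadjusted p under 0.05. With both left out 0 were called and 1377 passed that level, but day 0 is then S7 alone, and the spread comes from the later libraries and is assumed to hold for it. All 3 libraries carry the day 0 label, so what sets S1 and S2 apart from S7 is not the labelled time.

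**Figure D2:**
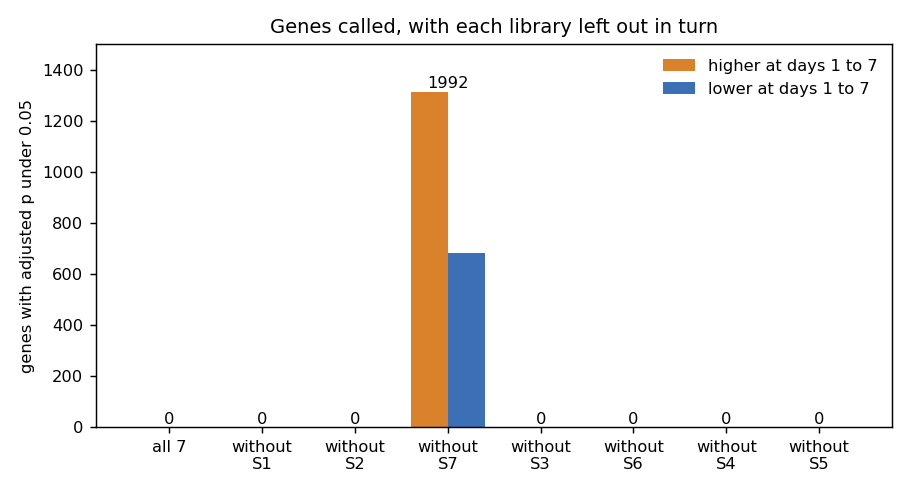
Number of genes with an edgeR adjusted p under 0.05 (vertical axis) in the comparison of day 0 with days 1 to 7 with all 7 libraries and with each left out in turn, split by direction. Of these 8 fits only the one without S7 made calls, 1311 higher and 681 lower, 1992 in all.

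The classes of neuron picked differed widely between the day 0 libraries. Unsupervised clustering of the 503 cells gave 7 clusters, 4 of which were named by markers: a PEP-like cluster of 136 cells with 8 of 10 PEP markers high, an NF-like cluster of 97 cells with 7 of 9 NF markers, an NP-like cluster of 76 cells with 5 of 7 and an SST-like cluster of 28 cells with 5 of 6. The other 3 are called by their leading gene: an Rbp2 cluster of 91 cells, a Cav1 cluster of 58 and a Cd7 cluster of 17. The last had 4 of 7 markers of C-fibre mechanoreceptors high, Zfp521 (219 CPM against 19.8 in other cells) and Tafa4 (203 against 10.9) among them, but none among its leading 10 genes, and Th was at 0 in it. The NP markers not high in NP-like cells were Mrgprd, at 0.898 CPM there, and Mrgprb4, at 32.3 against 45.5 in other cells. Mrgprb4 was instead a leading gene of the Rbp2 cluster (187 against 11.9). The NP markers Gfra2 and P2rx3 were high in the Cav1 cluster as well.

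PEP-like cells were 0 of 44 in S1 (95% Wilson upper bound 8.03%; 6.82% by the limit of 3 counts), 3 of 46 in S2 (6.52%, 95% Wilson interval 2.24 to 17.5) and 23 of 48 in S7 (47.9%, interval 34.5 to 61.7). At days 1 to 7 they made 31.2% of S3, 28.4% of S6, 19.8% of S4 and 40% of S5. NF-like cells were absent among the cells of S1 and S2, where the Wilson bound allows up to 8.03% and 7.71%, and made 27.1% of S7. The later libraries held 22.9% in S3, 12.5% in S6, 51.2% in S4 and 7.37% in S5. Both the lowest and the highest share of PEP-like cells were thus at day 0, and S4 held the most NF-like cells.

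S1 and S2 were instead richest in NP-like cells and in the Rbp2 cluster. NP-like cells made 40.9% of S1 and 34.8% of S2 but 6.25% of S7, against 12.5% in S3, 13.6% in S6, 3.49% in S4 and 12.6% in S5. The Rbp2 cluster took 29.5% of S1, 23.9% of S2 and 4.17% of S7, and 15.1% to 20.5% of the later libraries. The Cav1 cluster took 13.6%, 26.1% and 10.4% at day 0 and 3.49% to 13.6% later. SST-like cells were 4.17% to 6.82% at day 0 and 3.49% to 7.37% later, and the Cd7 cluster 0% to 9.09% and 1.04% to 5.68%. None of the 7 shares differed between the groups by the exact permutation test over libraries: the differences, days 1 to 7 minus day 0, were 11.7 percentage points for PEP-like, 14.5 for NF-like, -16.7 for NP-like, -7.2 for the Cav1 cluster and within 1.41 for the rest, with exact p from 0.229 to 0.914 and adjusted p from 0.7 to 0.914. Intervals and limits cover counting error only. The study describes its neurons as sampled at random and of differing size, and how the cells of each of these libraries were picked is not given in the sources used here.

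**Figure D3:**
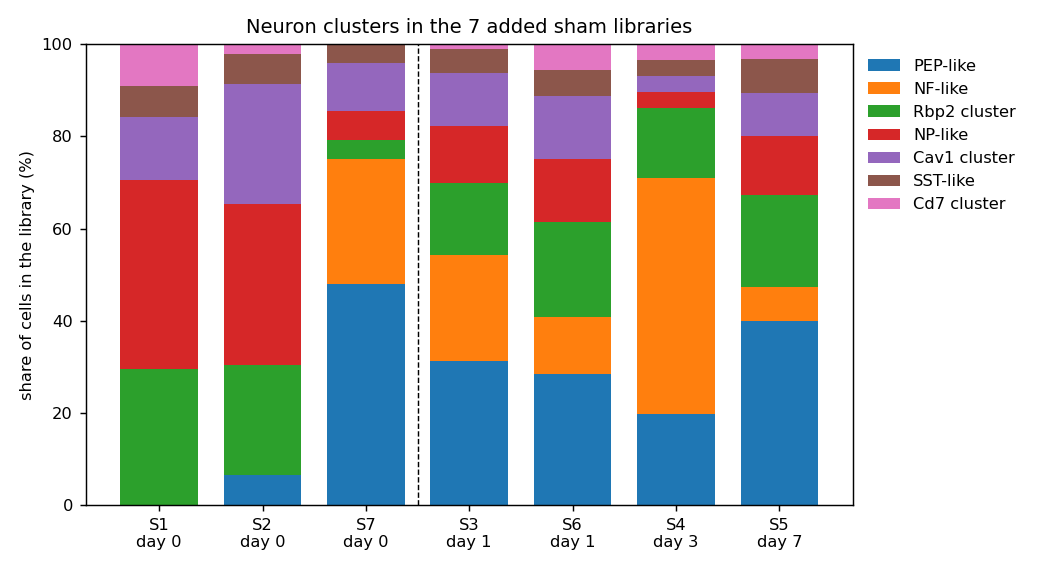
Share of the cells of each library (vertical axis, %) in each of the 7 clusters, with day 0 libraries left of the dashed line and days 1 to 7 right of it. S1 and S2 hold almost no PEP-like and no NF-like cells, whereas S7 holds 47.9% and 27.1%.

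Class markers in the library sums were low in S1 and S2 for PEP and NF neurons, but followed the shares of S7 only in part. Nefh, the heavy neurofilament chain, was at 275 CPM in S1, 311 in S2 and 1070 in S7, and at 1298, 932, 2505 and 973 in S3, S6, S4 and S5. S7 lay inside the later range and S1 and S2 below it. Pvalb, a calcium buffer of proprioceptors, was at 0, 0.384 and 23.2 CPM at day 0 against 152, 41.5, 473 and 99 later, in the same order, so that S7 lay below every later library although its share of NF-like cells exceeded those of S3, S6 and S5. The NF markers Spp1, Shox2 and Ntng1 were likewise lower in S7, at 69.5, 7.63 and 27.3 CPM, than in any later library, where the lowest levels were 111, 20.4 and 28.1. The remaining NF markers were not. Ntrk2 and Ntrk3, at 87 and 58.1 CPM in S7, lay inside the later ranges of 58.8 to 94.4 and 35.7 to 152. Kcnv1 and S100a16 were highest in S7, at 155 and 70 CPM against 37.15 to 81.1 and 17.5 to 37 later. Both were high in the PEP-like cluster and not in the NF-like one. Cd9, a tetraspanin and PEP marker, was highest in S7 at 476 CPM and lowest in S1 and S2 at 9.39 and 3.9, with 140 to 306 later. Other PEP markers did not follow the share of S7: Kcng1, a modulatory potassium channel subunit, was at 0, 4.35 and 20 CPM at day 0 and 30.1 to 62.7 later, and Cck at 0, 0 and 0.713 and 1.7 to 4.11, as were Tac1 and Adcyap1, given below. Gfra2, a GDNF family receptor of NP neurons, was at 312 and 292 CPM in S1 and S2, 53.1 in S7 and 78.3 to 141 later. Lpar3, a lysophosphatidic acid receptor, ran 146, 94 and 8.91 CPM at day 0 and 26.8 to 34.2 later. For Cd9, Gfra2 and Lpar3, the later libraries lay between S7 on one side and S1 and S2 on the other.

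The genes given next are those with the lowest unadjusted p in each direction among genes of at least 10 CPM in a group whose levels did not overlap; none passed, and the edgeR adjusted p of each of the 16 was 0.523. A direction without overlap was part of how they were chosen. Among the 8 higher later, Amigo2, a leucine-rich repeat adhesion protein of neurons, was at 6.39, 6.21 and 10.4 CPM in S1, S2 and S7 and at 29, 26.7, 46.3 and 25 in S3, S6, S4 and S5. Its log2 fold change was 2.04 ± 0.33 (SE), and 51% of its UMIs were in PEP-like cells. Tac1, the precursor of substance P, was at 171, 84.3 and 245 CPM at day 0 and at 404, 440, 455 and 580 later (log2 1.49 ± 0.32), with 64.4% of UMIs in PEP-like cells. Zfp36l1, which binds AU-rich RNA and promotes its decay, was at 1.57 to 2.86 CPM at day 0 and 7.27 to 21.4 later (log2 2.54 ± 0.50). Fam184b was at 2.37 to 3.63 and at 8.11 to 21.9 CPM (log2 2.12 ± 0.44).

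A trio of these genes belonged to NF-like cells. Onecut1, a cut-homeobox transcription factor, was at 0.526, 1.47 and 1.21 CPM in S1, S2 and S7 and at 19.5, 10.7, 62.2 and 11.2 in S3, S6, S4 and S5 (log2 4.57 ± 0.80). Rcsd1, which encodes a protein that binds the actin capping protein, was at 0.526 to 1.21 and 7.4 to 67.5 CPM (log2 4.92 ± 0.93), and Inhbb, a subunit of activin B, at 0.256 to 0.855 and 5.17 to 75 CPM (log2 5.47 ± 1.08). NF-like cells held 84.2%, 84.1% and 87% of their UMIs, and Onecut1 is among the leading genes of that cluster. Here S7 did not side with the later libraries although 13 of its 48 cells were NF-like: within NF-like cells, Onecut1 was at 3.63 CPM in S7 against 29.7 to 97.4 in the later libraries, Inhbb at 2.02 against 28.7 to 111 and Rcsd1 at 6.04 against 19.1 to 101. In S5 and S6 these sums came from few cells: above 100 CPM of Onecut1 were 1 of 7 and 3 of 11 cells, of Inhbb 1 of 7 and 2 of 11 and of Rcsd1 1 of 7 and 2 of 11, and the median cell of S6 was at 0, 0.847 and 0.805 CPM. In S4 the medians were 76.4, 85.7 and 90.1 CPM. In S7 the medians were 0 and no cell passed 100 CPM. Nefh differed less within those cells, with 1501 CPM in S7 and 1648 to 3042 later. S7 is the one day 0 library with NF-like cells, so day 0 has 1 library in this class.

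Crh, which encodes corticotropin-releasing hormone, differed most in level. It was counted 5, 6 and 2 times in S1, S2 and S7, 19 times in S3, and 2988, 980 and 1167 times in S6, S4 and S5, or 0.0713 to 0.384 CPM at day 0 and 0.491, 68.7, 31.5 and 34.8 CPM later (log2 7.05 ± 1.53). S3, a day 1 library, sided with day 0, and S6, the other day 1 library, had the highest level.

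**Figure D4:**
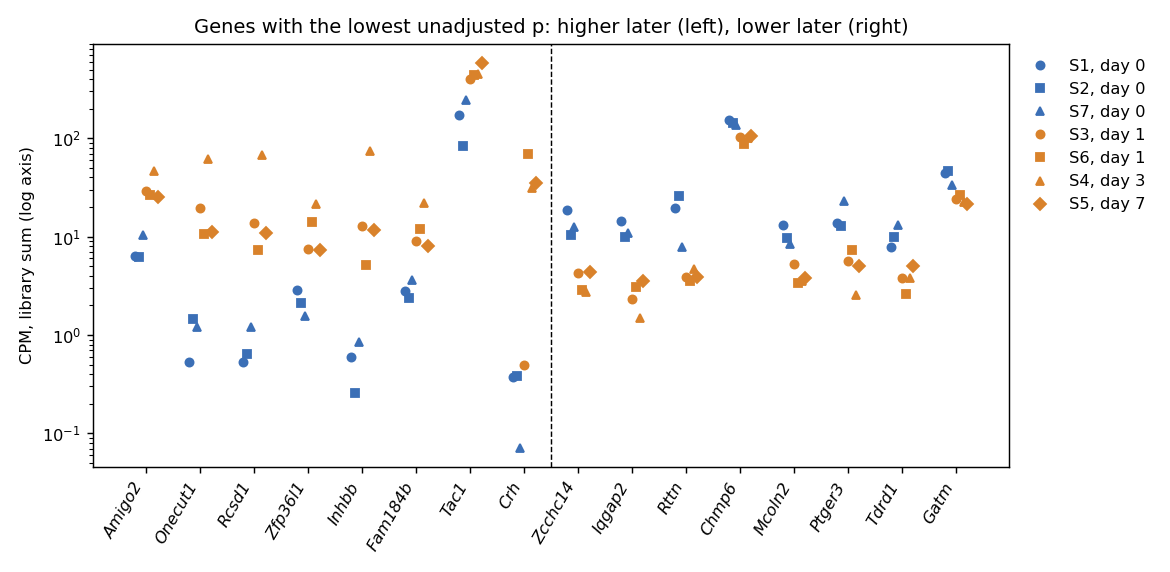
CPM of the library sums (log axis) for the 8 genes higher and the 8 lower at days 1 to 7 with the lowest unadjusted p and no overlap, 1 point per library. Day 0 is blue and days 1 to 7 orange; for Crh, S3 at 0.491 CPM sits beside the day 0 libraries, and S4 is highest for Onecut1, Rcsd1 and Inhbb.

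The 8 genes lower later were mostly less concentrated in 1 cluster and mostly of low level. The cluster with their highest mean level held 1.11% (Tdrd1) to 23.9% (Rttn) of their UMIs. For the 8 genes higher later it held 11.2% (Fam184b) to 87% (Inhbb). Zcchc14 was at 18.8, 10.4 and 12.6 CPM in S1, S2 and S7 and at 4.24, 2.9, 2.76 and 4.38 in S3, S6, S4 and S5 (log2 -1.97 ± 0.35). Iqgap2, a scaffold of the cytoskeleton, was at 9.92 to 14.4 CPM at day 0 and 1.48 to 3.58 later (log2 -2.17 ± 0.38), and Rttn, a protein of centrioles, at 7.91 to 25.9 and 3.56 to 4.66 (log2 -2.15 ± 0.41). Ptger3, the EP3 receptor for prostaglandin E2, was at 13.7, 12.9 and 23.2 CPM at day 0 and at 5.63, 7.24, 2.54 and 5.04 later (log2 -1.70 ± 0.41). S7 had the most Ptger3, on the side of S1 and S2. Mcoln2, an endolysosomal cation channel, and Tdrd1, a tudor domain protein known from germ cells, were at 7.82 to 13.2 CPM at day 0 and 2.6 to 5.24 later. At higher levels, Chmp6, a subunit of the ESCRT-III membrane complex, was at 136 to 154 CPM and 87.8 to 105 later (log2 -0.54 ± 0.12), and Gatm, an enzyme of creatine synthesis, at 33.6 to 46.7 and 21.4 to 26.3 (log2 -0.82 ± 0.20). Of the 16 genes, 8 of the 8 higher and 6 of the 8 lower later were also called by edgeR without S7. Over all genes that fit called 7.83% higher and 4.07% lower later. The 16 had been picked from these same libraries for low p and no overlap, so these calls add no support.

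In lists of genes by role, 0 members of any list had an adjusted p under 0.05 with all 7 libraries, so each list is described by its counts and median beside those of all genes (5% higher and 4.3% lower at an unadjusted p under 0.05, 5.77% higher and 4.9% lower without overlap, median log2 0.01). Members called by edgeR without S7 are read against 11.9% of all genes in that fit, 7.83% higher and 4.07% lower later. Of 20 neuropeptide genes tested, 6 were higher and 1 lower at an unadjusted p under 0.05 with all 7 libraries. Their median log2 fold change was 0.31. Adcyap1, the precursor of PACAP, was at 10.8, 29.9 and 49.5 CPM at day 0 and 85.8, 87.4, 73.2 and 101 in S3, S6, S4 and S5 (log2 1.53 ± 0.43, adjusted p = 0.523). Calca, which gives calcitonin gene-related peptide, ran 953, 979 and 1367 CPM against 754 to 1224 (log2 -0.08 ± 0.20), and its paralogue Calcb 779, 660 and 509 against 280 to 497 (log2 -0.57 ± 0.23). Adcyap1 and Calcb, both without overlap between the groups, thus differed in sign. Reads of Calca and Calcb can be hard to part, because the genes are alike in sequence.

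Among 34 potassium and HCN channel genes, 7 were higher and 0 lower at an unadjusted p under 0.05, with a median of 0.23, and 6 were higher later without overlap (5.77% of all genes were). Kcnc1, a fast delayed rectifier of rapidly firing neurons, was at 0.977, 1.34 and 24.5 CPM in S1, S2 and S7 and at 40.9, 25.6, 107 and 35 in S3, S6, S4 and S5 (log2 2.52 ± 1.08). It was lowest in S1 and S2 and highest in S4, the library with the most NF-like cells. The order did not hold for S7, which with 27.1% NF-like cells lay below S6 with 12.5% and S5 with 7.37%. Of 14 sodium channel genes, 2 were lower and 0 higher; Scn4a, the channel known from skeletal muscle, was at 6.99, 4.22 and 2.39 CPM at day 0 and 0.594 to 0.931 later (log2 -2.64 ± 0.49). Scn10a and Scn11a, the nociceptor channels Nav1.8 and Nav1.9, were at 562 to 581 and 633 to 636 CPM in S1 and S2 and at 325 and 158 in S7, against 278 to 394 and 311 to 380 later, so S7 was below or within the later range. Of 24 TRP, Piezo, ASIC and P2X genes, 2 were higher and 1 lower (median 0.01), and of 14 calcium channel genes 2 were higher and 0 lower (median -0.15). Of 7 receptors for neurotrophins and GDNF family ligands 1 was higher (median 0.55). Without S7, 16 of the 34 potassium and HCN genes, 7 of the 14 sodium channel genes, 9 of the 24 TRP, Piezo, ASIC and P2X genes and 6 of the 7 receptors were called, in both directions in each list, and 0 of the 14 calcium channel genes (11.9% of all genes were called). Of the neuropeptide genes 7 of 20 were.

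Genes of activity and nerve injury gave no call by edgeR with all 7 libraries. Of 22 immediate early genes 6 were higher and 0 lower at an unadjusted p under 0.05, with a median of 0.26. Without overlap, 4 were higher and 2 lower later (5.77% and 4.9% of all genes were). The 2 lower were Klf6, at 158 to 178 CPM at day 0 and 62.8 to 143 later, and Dusp1, at 92.29 to 106 and 51.4 to 92.15. Junb was at 44.1, 64.5 and 81.5 CPM at day 0 and 117, 89.6, 143 and 94.4 in S3, S6, S4 and S5 (log2 0.81 ± 0.25), and Egr1 at 40.4, 72.1 and 65.8 and 93.5, 93.1, 116 and 81.6 (log2 0.69 ± 0.22), each a transcription factor induced by activity. Fos, the usual marker of recent activity, was at 198 to 222 CPM at day 0 and 82.3 to 213 later (log2 -0.30 ± 0.29), and Fosb at 104 to 124 and 96.2 to 129. Of 26 nerve injury genes 2 were higher and 1 lower (median 0.05); Gap43, a growth cone protein, was at 633 to 765 CPM at day 0 and 427 to 666 later, and Gadd45a, a stress sensor, at 136 to 220 and 96.2 to 153 (log2 -0.53 ± 0.21, adjusted p = 0.523). Crh is on this list as well as among the neuropeptides. Of 20 heat shock genes 1 was higher (median 0.06), of 21 cytokine and inflammatory genes 1 was higher and 1 lower (median 0.07), and of 21 interferon and antigen presentation genes 0 passed the unadjusted level (median 0.31). Of 17 clock genes 0 did (median -0.18). Without S7, edgeR called 4 of the 22 immediate early genes, 8 of the 26 nerve injury genes, 3 of the 20 heat shock genes, 4 of the 21 cytokine genes, 5 of the 21 interferon genes and 1 of the 17 clock genes, against 11.9% of all genes.

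Stress and housekeeping lists were likewise without a call with all 7 libraries. Of 14 glucocorticoid-responsive genes 3 were higher (median 0.15): Ddit4, an inhibitor of mTOR signalling, was at 6.54, 8.45 and 16 CPM at day 0 and 32.6, 16, 63 and 21.1 later, and Sgk1, a kinase, at 21, 14.5 and 50.2 and 45.8 to 89.5. In both, S7 met the low end of the later libraries. Of 20 genes of the integrated stress response 2 were lower (median -0.11), and Herpud1, of the endoplasmic reticulum, was at 195, 194 and 112 CPM at day 0 and 96.8 to 120 later. Of 18 oxidative stress genes 3 were lower (median 0.01), among them Nqo1, a quinone reductase, at 354, 321 and 174 CPM and 153 to 195 later. Of 65 ribosomal protein genes 56 lay below 0 (median -0.22) and 0 passed even the unadjusted level; their summed level was 25940, 22710 and 17320 CPM at day 0 and 15150 to 20570 later, with S7 again inside the later range. Of 77 nuclear respiratory chain genes 1 was higher (median -0.02), of 13 mitochondrial protein genes 1 was lower (median 0.03) and of 11 tubulins 0 passed (median 0.05). Without S7, edgeR called 5 of the 14 glucocorticoid-responsive, 5 of the 20 integrated stress response and 6 of the 18 oxidative stress genes, but 4 of the 65 ribosomal protein, 2 of the 77 nuclear respiratory chain, 0 of the 13 mitochondrial and 1 of the 11 tubulin genes, against 11.9% of all genes.

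Several markers of glia were low in S1 and S2, whereas those of other cells did not share that pattern. Of 18 satellite glia and Schwann cell markers tested, 16 were above 0 with a median log2 fold change of 0.92, 1 passed the unadjusted level and 0 the adjusted; the summed level of the 20 markers in the files was 909 to 1442 CPM at day 0 and 1155 to 1506 later. Apoe, a lipid carrier of satellite glia, was at 7.29, 22.1 and 353 CPM in S1, S2 and S7 and at 213, 218, 271 and 361 in S3, S6, S4 and S5, and Sparc, a matrix protein, at 15.9, 16 and 121 and 90.5 to 142. S7 lay in the later range for both. Without S7, edgeR called 11 of the 18 higher later (7.83% of all genes were). Of 12 macrophage and lymphocyte markers 10 lay below 0 (median -0.72), 1 was higher and 1 lower at the unadjusted level, and their sum was 33.2 to 46 CPM at day 0 and 18.6 to 30.8 later, so that S7 sided with S1 and S2. Of 16 vascular, fibroblast and blood markers 4 were higher (median 0.41), with a sum of 43.6 to 73.3 CPM at day 0 and 44.3 to 82.9 later; Hba-a1, an alpha globin, was at 1.65, 1.73 and 1.96 CPM in S1, S2 and S7 and at 3.35 to 13.8 later (log2 2.30 ± 0.59). Fewer attached cells of a type and less RNA per such cell cannot be told apart, and the part of these cells in the results was not tested.

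Within PEP-like cells, fitted on S2 and S7 against the later libraries, 0 of 14526 genes were called (0%) and 925 passed the unadjusted level (6.37%). Tac1 was at 477 and 315 CPM in S2 and S7 and at 826, 821, 1015 and 974 in S3, S6, S4 and S5 (log2 1.21 ± 0.27, adjusted p = 0.511). S2 gave 3 cells to this fit, of which 1 stood at 3319 CPM of Tac1 and the median one at 8.64; the median PEP-like cell of S7 was at 98.1 CPM and those of the later libraries at 576 to 1111. Within the Cav1 cluster 0 of 10406 genes were called (0%) and 520 passed the unadjusted level (5%).

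Within NP-like cells, where all 7 libraries gave at least 3 cells, 1 of 11140 genes was called (0.00898%) and 562 passed the unadjusted level (5.04%). The call was Ifit3, an interferon-induced gene, named here after its values were seen, at 21.6, 25 and 56.7 CPM in S1, S2 and S7 and at 2.94, 1.17, 3 and 1.41 in S3, S6, S4 and S5 (log2 -3.98 ± 0.54, adjusted p = 0.0318). The call rested on few cells. Ifit3 was counted in 3 of 18 cells of S1, 4 of 16 of S2 and 2 of 3 of S7, with a highest cell of 199, 123 and 93.1 CPM, and in S3 one of 12 cells stood at 101 CPM; with each cell given the same weight, S3 had a mean of 8.95 CPM, next to 9.72 in S2 and 11.9 in S1. Ifit3 lost its call without S1 (adjusted p = 0.0774), without S2 (0.15) or without S5 (0.158). Ifit2, Isg15 and Irf7, other interferon-induced genes, had log2 fold changes of 0.05 ± 1.09, -0.42 ± 0.95 and -0.56 ± 0.89 in these cells. Over all cells of a library Ifit3 was at 4.95 to 13.4 CPM at day 0 and 2.28 to 19.6 later.

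Most Crh was in NP-like cells, 70.5% of its UMIs. There it was at 0.535 to 1.15 CPM in S1, S2 and S7 and at 1.47, 423, 212 and 335 in S3, S6, S4 and S5 (log2 8.14 ± 1.42, adjusted p = 0.1). Cells above 100 CPM of Crh were 0 of 18, 0 of 16 and 0 of 3 at day 0, 0 of 12 in S3, and 12 of 12, 3 of 3 and 10 of 12 in S6, S4 and S5. The same 3 libraries had Crh in other clusters. Above 100 CPM were 3 of 12 cells of the Cav1 cluster in S6 (highest 407 CPM) and 1 of 9 in S5, 2 of 13 of the Rbp2 cluster in S4 and 1 of 18 in S6, and 1 of 3 of the Cd7 cluster in S5. At a lower level, in PEP-like cells 18 of 25, 13 of 17 and 20 of 38 had a UMI in S6, S4 and S5, with medians of 3.34, 7.47 and 1.28 CPM, against 0 of 30 in S3 and 1 of 23 in S7; the median cell held 421764 UMIs in the PEP-like and 315371 in the NP-like cluster. Crh is a leading gene of the NP-like cluster, and the day 1 libraries S3 and S6 stood on opposite sides of its range.

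RNA of one class was found in the cells of another, in step with the library. Pvalb was at 0, 0 and 2.03 CPM in NP-like cells of S1, S2 and S7 and at 37.2, 6.02, 136 and 26.4 in those of S3, S6, S4 and S5, while all cells of these libraries stood at 0, 0.384, 23.2, 152, 41.5, 473 and 99. In S4 it had a UMI in 3 of 3 NP-like and 17 of 17 PEP-like cells, and in S1 in 0 of 18 NP-like cells. Tac1 in NP-like cells was at 22.8, 13.3 and 52.7 CPM and 104 to 223 later (log2 2.41 ± 0.39, adjusted p = 0.0756). The part of carried-over RNA in these differences was not tested. Nsmaf, a sphingomyelinase adaptor, ran the other way in NP-like cells, with 89.1, 86.7 and 57.7 CPM against 9.87 to 29.5 (log2 -2.05 ± 0.32, adjusted p = 0.0756), as did Avpr1a, a vasopressin receptor, with 43.5 to 49.5 against 11.8 to 19.3 CPM (log2 -1.61 ± 0.30, adjusted p = 0.19) and Timp1, a metalloprotease inhibitor, with 47.4 to 133 against 8.74 to 31.8 (log2 -2.06 ± 0.42, adjusted p = 0.192). The groups did not overlap for these, and none passed.

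**Figure D5:**
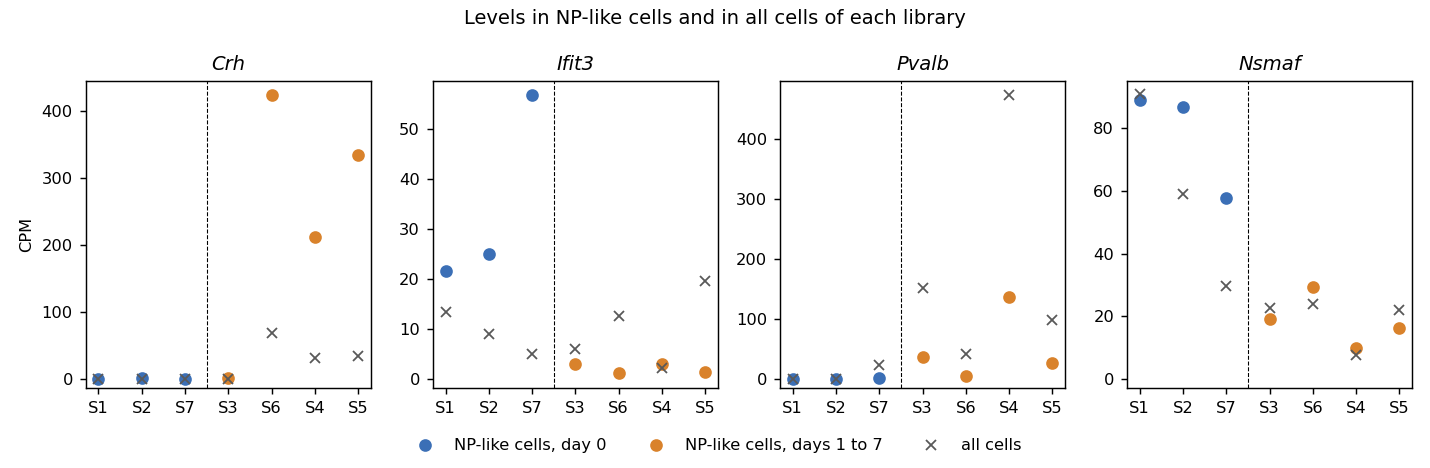
CPM of Crh, Ifit3, Pvalb and Nsmaf (vertical axes, linear) in the summed NP-like cells of each library (circles, blue for day 0 and orange for days 1 to 7) and in all its cells (crosses). Crh is high in S6, S4 and S5 but at 1.47 CPM in S3, and Pvalb in NP-like cells is highest in S4, where all cells also hold the most.

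Within the Rbp2 cluster, in which S7 had 2 cells and was left out of the fit, S1 and S2 against the later libraries gave 12 calls of 11934 genes (0.101%), 11 higher and 1 lower, and 1193 at the unadjusted level (10%). Apoe was at 5.19 and 12 CPM in S1 and S2 and at 144, 157, 216 and 145 in S3, S6, S4 and S5 (log2 4.25 ± 0.34, adjusted p = 0.000276). S100b, a calcium-binding protein of glia and large neurons, was at 24.8 and 19.3 CPM against 98.3 to 319 (log2 3.02 ± 0.43, adjusted p = 0.0179). Apoe was low in the sums of S1 and S2 too, and in S7 as a whole it was at the later level. Chl1, an adhesion molecule of axons, was at 15.6 and 12.9 CPM against 53.5 or more (log2 2.48 ± 0.30, adjusted p = 0.00671), and Junb at 37.3 and 69.6 against 136 to 177 (log2 1.53 ± 0.25, adjusted p = 0.0466). Others higher later included Tor3a, Syndig1l, Tp53i11, Pde1c, Rgs8 and 1 uncharacterised locus, and the 1 gene lower later was an uncharacterised locus too. All 12 kept their sign with each library left out, but 6 or fewer of them stayed called without S1, S2 or S3 in turn, and without S4 the fit made 59 calls. These calls compare S1 and S2 with the later libraries. The 2 cells of S7 in this cluster had a mean of 58.7 CPM of Apoe, above the highest cell of S1 (30.1) and of S2 (50); with 2 cells this is a value without a test.

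With day 1 alone, the time with 2 libraries, 0 of 16175 genes were called against day 0 (0%) and 442 passed the unadjusted level (2.73%). Days 3 and 7 have 1 library each, so time and library cannot be told apart for them. For scale, the 16 dye-labelled DRG samples of the series, which share no library with these, gave 0 calls of 14239 genes (0%) between sham and 1 to 7 days after crush of the tibial and common peroneal nerves, with 827 at the unadjusted level (5.81%). The crush samples pooled neurons of crushed and of uncrushed nerve branches, and the contrast averaged days 1, 3 and 7. Atf3, a nerve injury gene, was at 363 to 1070 CPM in the labelled sham samples and 365 to 661 after crush. This contrast cannot show that crush changed no gene. In the 4 dye-labelled sham samples Crh was at 0.402 to 11.4 CPM (median 0.734), Onecut1 at 1.41 to 10.1 (median 5.15), Amigo2 at 6.19 to 11.9 (median 10.8) and Tac1 at 367 to 1117 (median 648). Crh and Amigo2 there ended below S4, S5 and S6, and Tac1 overlapped the later libraries.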

How the data were processed

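Counts were deposited by the authors as whole UMI counts per gene and cell, without normalization: reads were split by cell barcode, aligned with STAR to the rat build Rnor_6.0, assigned with featureCounts and collapsed with UMI-tools. Genes were matched by symbol, 32881 in all files. Cells were filtered by the study's limits (mitochondrial share over the 13 protein genes), summed per library and tested with edgeR 4.0.16 (TMM, filterByExpr, quasi-likelihood, Benjamini-Hochberg, threshold 0.05), checked on simulated data; CPM are TMM-normalized, except means and medians over cells. Clusters came from Seurat 5.3.0 (log-normalization to 10000, 2000 variable genes, 40 components, resolution 0.5); 0 genes had to be removed for being called. Within clusters, libraries with at least 3 cells were fitted. No doublet caller was run on these hand-picked cells. Shares and medians were compared with SciPy 1.17.1.

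Named genes were up to 8 per direction with the lowest unadjusted p (fewer than 5 had passed), of at least 10 CPM in a group, without overlap and with a characterised symbol, plus called and abundant members of 23 lists and class markers; other names were chosen after their values were seen. Members, lists and tests were chosen with earlier results of these data known. Alternatives were DESeq2 1.42.0, its size factors, no filter, each library left out, cells thinned to 20000 UMIs, 37 mitochondrial genes in the limit, a fit of 4 times, single clusters, resolutions 0.3 and 0.8 and, added after seeing the data, S1 and S2 summed or left out and further clusters.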

Additional observations from a re-analysis of the deposited data

Results flagged for a closer look

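Among 96 values checked in the 4 later libraries, 10 had 1 library far from the other 3 by Dixon's test at the 95% level, where chance gives about 1 in 20. S4, the only library at 3 days, was that library in 9 of them. Its NP-like cells were 3.49% of cells against 12.5% to 13.6%. In its sums, Rcsd1 was at 67.5 CPM against 7.4 to 13.8, Inhbb at 75 against 5.17 to 13, and Spp1, osteopontin, at 768 against 111 to 199. Also in S4, Calcb was at 280 CPM against 487 to 497, Fos at 82.3 against 193 to 213 and Herpud1 at 96.8 against 117 to 120. The immediate early genes summed to 1226 CPM in S4 against 1342 to 1354, and Tac1 in its NP-like cells was at 223 CPM against 104 to 122. The other was S5, with Sst at 245.5 CPM against 104 to 127. S4 also held the most NF-like cells, 51.2%, and the part of this in these values was not tested.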

How the results depend on the processing

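The call of 0 genes between day 0 and days 1 to 7 held in 16 of 21 alternatives, of which those with NF-like cells only and with S1 and S2 left out have S7 alone at day 0; DESeq2 gave 195, thinned cells 1, the Rbp2 cluster 12 and NP-like cells 1, and leaving out 1 library gave 0 to 1992, the last without S7. Within the Rbp2 cluster leaving out 1 library gave 6 to 59 calls, and within NP-like cells 0 to 55, the last without S7; with at least 5 NP-like cells per library, which leaves out S4 and S7, 95 genes were called, Ifit3 among them (log2 -3.62, edgeR adjusted p = 0.00231). Of the named genes, 4 changed sign in a single cluster: Onecut1 in PEP-like cells (log2 -0.0307), Zcchc14 in NP-like cells (0.0409), and Mcoln2 (0.24) and Gatm (0.0036) in the Cav1 cluster. Over all their alternatives, the adjusted p of Crh ranged from 0.000214 to 0.999 and that of Tac1 from 0.00478 to 0.999. With S1 and S2 both left out, so that the shares have S7 alone for day 0 and no test, the differences in share turned to -18.1 percentage points for PEP-like, -3.6 for NF-like, 4.31 for NP-like, 13.6 for the Rbp2 cluster, 1.27 for SST-like and 3.34 for the Cd7 cluster. With S1 and S2 summed they turned to 2.38, 0.0201 and 0.565 for the Rbp2, SST-like and Cd7 cells. Leaving out 1 library moved these 3 from -8.93 to 3.76, from -1.23 to 0.251 and from -2.29 to 2.26, and the difference in median UMIs per cell from -85185 to 42786, the last without S7. The cause of these changes was not tested. The count between day 1 and day 0 and that after crush were 0 in their alternatives as well. No paired analysis was possible because the labels give the added libraries no replicate numbers that day 0 and later libraries share.

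With 3 libraries against 4, and day 0 libraries that differ so much in the classes picked, a difference of time has to exceed that spread to be called. Days 3 and 7 rest on 1 library each, some classes on 2 or 3 cells, and CPM are shares, so a gene can be higher because others are lower. Fits with S7 alone at day 0 assume that it varies like the later libraries.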
